A study of Mus musculus with 12 samples.

Results

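Transcripts of the mouse mitochondrial genome were examined in a table of unique molecular identifier (UMI) counts from the adult mouse hippocampus. The 10 transcripts were taken by gene symbol from 32546 genes in the table, and they are 2 ribosomal RNAs (mt-Rnr1 and mt-Rnr2) and 8 protein-coding transcripts (mt-Nd1, mt-Nd2, mt-Nd4, mt-Nd5, mt-Cytb, mt-Co1, mt-Co3 and mt-Atp6). Photo-isolation chemistry (PIC) was used to collect the RNA. In PIC, a caged oligo-dT primer starts reverse transcription in the section, and light uncages the cDNA in a chosen region so that only this cDNA can be amplified.

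The sections came from male ICR mice, an outbred stock, aged 8 weeks. The study compared 4 histological conditions. Fresh-frozen sections were permeabilized with 0.1 N HCl for 5 min after Triton X-100 (FF-HCl), or with TE at 70 °C for 1 h (FF-TE). Sections of brain fixed with 4% paraformaldehyde were either frozen (FixFrozen-TE) or embedded in paraffin (Paraffin-TE), and both were permeabilized with the same TE treatment. Sections of all conditions, fresh-frozen ones included, also received a brief fixation with paraformaldehyde after sectioning. In each condition CA1, CA3 and the dentate gyrus (DG) were irradiated in 4 replicates each, giving 48 replicates in 12 libraries. Each library held the 4 barcoded replicates of 1 region in 1 condition, so that region and library cannot be told apart within a condition. A difference between conditions is likewise also one between sets of libraries. The fits take the replicates as units and do not model the spread between libraries. Which animal gave which replicate is not given, and the p-values measure the spread between these replicates, which may be technical.

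Total UMIs per replicate were 127253 to 933756 in FF-HCl, 294445 to 1111804 in FF-TE, 52800 to 307145 in FixFrozen-TE and 35932 to 223055 in Paraffin-TE. The region labels were checked against markers, with 6 genes for each region, and in all 4 conditions the summed level of each list was highest in its own region. For the CA1 list, the mean in CA1 lay between 475 and 1128 CPM (UMIs of a gene scaled to a common total of all UMIs per replicate) over the conditions, against 73.3 to 286 CPM in the other regions.

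The mitochondrial genome is a small circle that is transcribed as long precursors on each strand. These are cut mainly at the transfer RNAs that lie between the other genes, and most of the released messenger RNAs receive a short poly(A) tail, which an oligo-dT primer can bind. The ribosomal RNAs, which form the core of the mitochondrial ribosome, carry only very short tails. The protein-coding members give core subunits of complex I (the Nd genes), complex III (mt-Cytb), complex IV (mt-Co1 and mt-Co3) and the ATP synthase (mt-Atp6), and neurons depend strongly on these complexes for ATP. Nuclear chromosomes also hold copies of parts of the mitochondrial genome, and several of these are annotated as pseudogenes.

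The annotated 3′ ends of the members were taken as the place where a primer at the tail starts. They show which members share this end with an annotated nuclear transcript. Priming elsewhere in a gene and copies outside the annotation are not covered. The sequences below are the last 60 bases of the annotated genes, from transcripts of GENCODE release 21 (GRCm38, plus strand of the mitochondrial chromosome). Capitals mark bases within a stretch of 50 bases that is also present in an annotated transcript of a nuclear chromosome.
mt-Rnr1, chrM:965-1024: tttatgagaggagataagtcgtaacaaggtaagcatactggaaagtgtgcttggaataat
mt-Rnr2, chrM:2616-2675: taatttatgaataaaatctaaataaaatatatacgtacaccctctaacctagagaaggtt
mt-Nd1, chrM:3648-3707: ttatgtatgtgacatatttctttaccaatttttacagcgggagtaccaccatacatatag
mt-Nd2, chrM:4892-4951: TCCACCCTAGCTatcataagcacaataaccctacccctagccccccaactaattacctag
mt-Co1, chrM:6813-6872: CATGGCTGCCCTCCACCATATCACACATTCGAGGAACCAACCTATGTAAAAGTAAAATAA
mt-Atp6, chrM:8548-8607: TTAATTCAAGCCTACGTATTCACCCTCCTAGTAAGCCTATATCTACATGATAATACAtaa
mt-Co3, chrM:9331-9390: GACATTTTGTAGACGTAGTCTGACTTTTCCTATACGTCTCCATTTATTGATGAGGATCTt
The set runs from ends with no capital (mt-Rnr1, mt-Rnr2 and mt-Nd1) to ends that are almost entirely shared (mt-Co1, mt-Atp6 and mt-Co3).

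Over the last 250 bases, the share of 50-base stretches that also occur in a nuclear transcript was 100% for mt-Co1, 99.5% for mt-Co3, 98.5% for mt-Atp6 and 39.8% for mt-Nd2. It was 2.5% for mt-Nd5 and 0% for mt-Rnr1, mt-Rnr2, mt-Nd1, mt-Nd4 and mt-Cytb. Over the whole gene it was 62.2% for mt-Nd4. The closest copies lie on the minus strand of chromosome 1. Gm28437 (chr1:24613189-24613971) matched mt-Co3 at 100% identity over 783 of 784 bases. Gm10925 (chr1:24613974-24614651) matched mt-Atp6 at 100% over 678 of 681 bases, and Gm29216 (chr1:24615706-24616197) matched the 3′ end of mt-Co1 at 99.8%. Reads that fit 2 places were not counted in the deposited table, so that the counts of mt-Co1, mt-Co3 and mt-Atp6 hold only the reads assigned to 1 place, and each value of these 3 genes is uncertain in this sense.

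The annotated genes are 955 bases long for mt-Rnr1 (chrM:70-1024), 1582 for mt-Rnr2 (chrM:1094-2675), 957 for mt-Nd1 (chrM:2751-3707), 1038 for mt-Nd2 (chrM:3914-4951) and 1545 for mt-Co1 (chrM:5328-6872). The others are 681 bases for mt-Atp6 (chrM:7927-8607), 784 for mt-Co3 (chrM:8607-9390), 1378 for mt-Nd4 (chrM:10167-11544), 1824 for mt-Nd5 (chrM:11742-13565) and 1144 for mt-Cytb (chrM:14145-15288). All 10 are on the plus strand. mt-Nd6, on the minus strand (chrM:13552-14070), overlaps the end of mt-Nd5, and the counting did not use strand, so that reads in the overlap cannot be assigned to either gene.

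A UMI of 6 bases has 4096 different forms, and counts of 1 gene in 1 replicate leveled off near this number, which is called the limit here. It was not a strict ceiling, since mt-Rnr2 exceeded it in 18 replicates, with at most 4356 UMIs, and how these counts arose is not given in the sources used here. The limit touched 6 members strongly. At least 50% of the limit was reached by mt-Rnr2 in 33 of 48 replicates, by mt-Nd4 in 28, by mt-Nd1 and mt-Cytb in 24 each, by mt-Rnr1 in 19 and by mt-Nd2 in 9. mt-Nd5 passed it in 2 replicates. mt-Co1, mt-Co3 and mt-Atp6 passed it in none, with at most 1772, 171 and 358 UMIs.

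The limit was not spread evenly over the conditions. In FF-TE, mt-Rnr2 had 4093 to 4317 UMIs in all 12 replicates while their totals differed more than 3-fold, so that its count carried almost no information there. In FF-HCl it reached at least 90% of the limit in 9 of 12 replicates, in FixFrozen-TE in 2 and in Paraffin-TE in 0. mt-Nd1 and mt-Nd4 reached 90% in 4 FF-TE replicates each and in no replicate of the other conditions. Among the other genes of the table, none reached 90% and 28 reached 50% of the limit in any replicate. All members stayed under 50% in 5 replicates of FixFrozen-TE and in 9 of Paraffin-TE, but in none of FF-HCl or FF-TE.

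**Figure D1:**
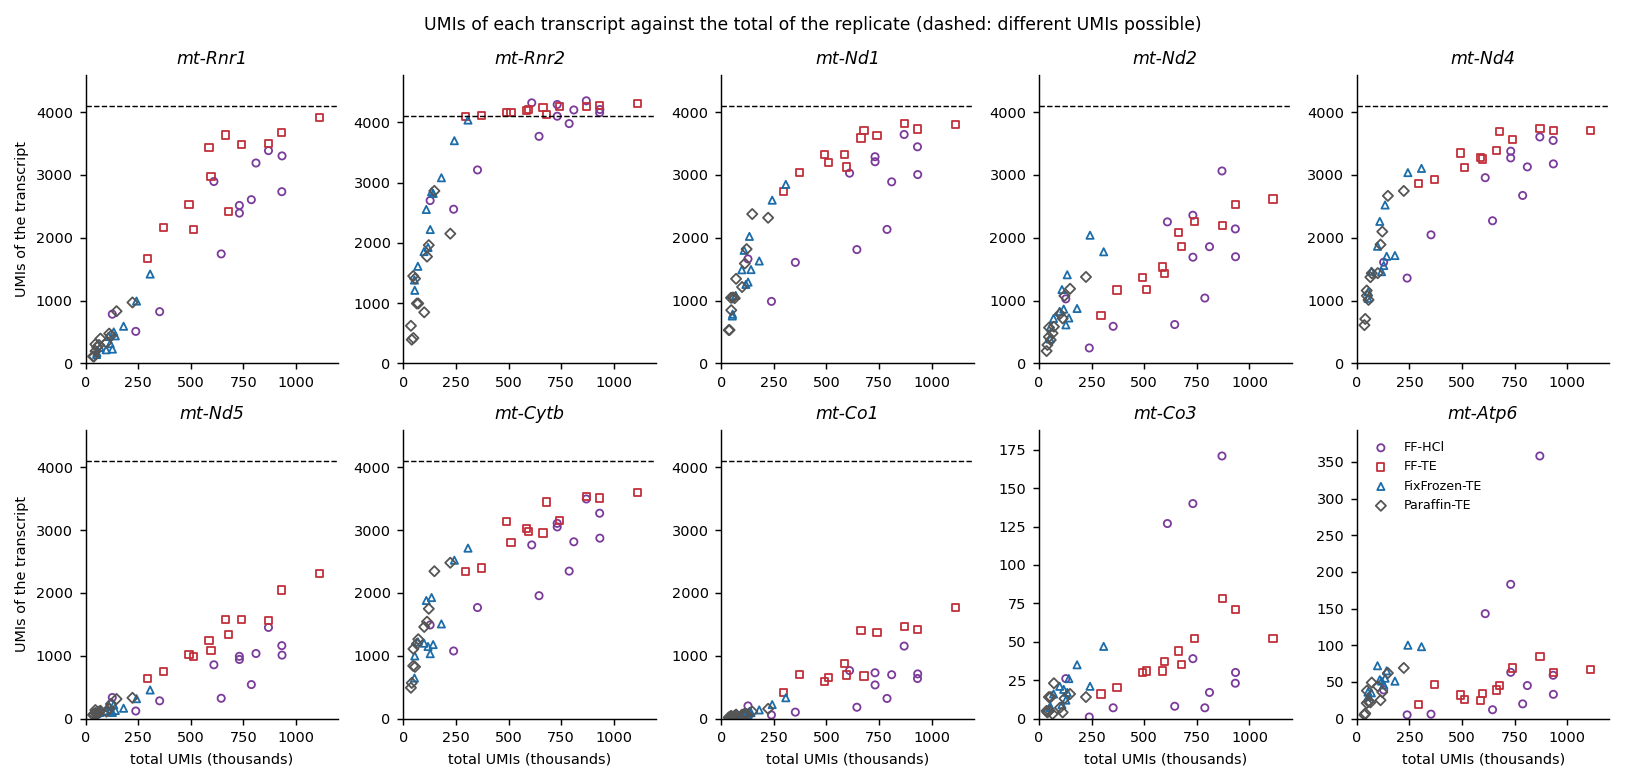
UMIs of each member (vertical axis) against the total UMIs of the replicate (horizontal axis, scaled as labeled) for the 48 replicates, with 1 marker shape for each condition and a dashed line at 4096. mt-Rnr2 lies close to the line in all FF-TE replicates (4093 to 4317 UMIs), whereas mt-Co3 and mt-Atp6 stay at or under 171 and 358 UMIs, on axes of their own.

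A count near the limit gives a lower CPM in a deeper replicate. Replicate 4 had the lowest total in 12 of 12 libraries, and it had the highest CPM of mt-Rnr2, mt-Nd4 and mt-Cytb in 8 of 12 libraries each and of mt-Nd1 in 7. The same was seen in 6 libraries for mt-Nd5, 5 for mt-Nd2, 4 for mt-Atp6, 3 for mt-Rnr1, 1 for mt-Co1 and 1 for mt-Co3, and in 24.4% of libraries on average over 6568 genes whose mean count was 10 UMIs or more. Both mt-Nd5 and mt-Atp6 are among these, although mt-Atp6 stayed under 50% of the limit in all 48 replicates and mt-Nd5 in all but 2. A correction for repeated UMIs was therefore computed for every member, as the number of molecules expected to give the observed number of different UMIs, and for counts above 90% of the limit it is a lower bound. With it, the shallowest replicate was the highest in 5 libraries each for mt-Rnr2, mt-Nd1, mt-Nd4, mt-Cytb and mt-Atp6. The number was 4 for mt-Nd5, 2 for mt-Nd2, 1 each for mt-Co1 and mt-Co3 and 0 for mt-Rnr1. In FF-TE all mt-Rnr2 counts lay above 90% of the limit and got the same corrected number. There the shallowest replicate has the highest corrected CPM by construction. The share over all genes was not computed after correction, so that these numbers have no background beside them.

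Levels were compared between members as CPM per kilobase (kb) of gene length, as deposited. The UMIs come from 3′ ends, so that the order also depends on dividing by length. In FF-TE mt-Nd1 (6007 CPM per kb), mt-Rnr1 (4964), mt-Rnr2 (4604), mt-Cytb (4462) and mt-Nd4 (4146) were the high members, and the limit lowers each of these values. The place of mt-Rnr2 among them cannot be given, since it was at the limit in all 12 replicates. mt-Nd2 (2599), mt-Nd5 (1128) and mt-Co1 (982) were lower, and mt-Atp6 (104) and mt-Co3 (79.2) were lowest. The members with shared 3′ ends were thus at the bottom of the order. In FixFrozen-TE the order began with mt-Nd1 (13196 CPM per kb), mt-Rnr2 (12350), mt-Nd4 (11441) and mt-Cytb (10626), and mt-Rnr1 (3393) had moved below mt-Nd2 (7580). In Paraffin-TE mt-Nd1 (16552), mt-Cytb (13841) and mt-Nd4 (13354) came first, and mt-Co3 was again lowest (176).

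**Figure D2:**
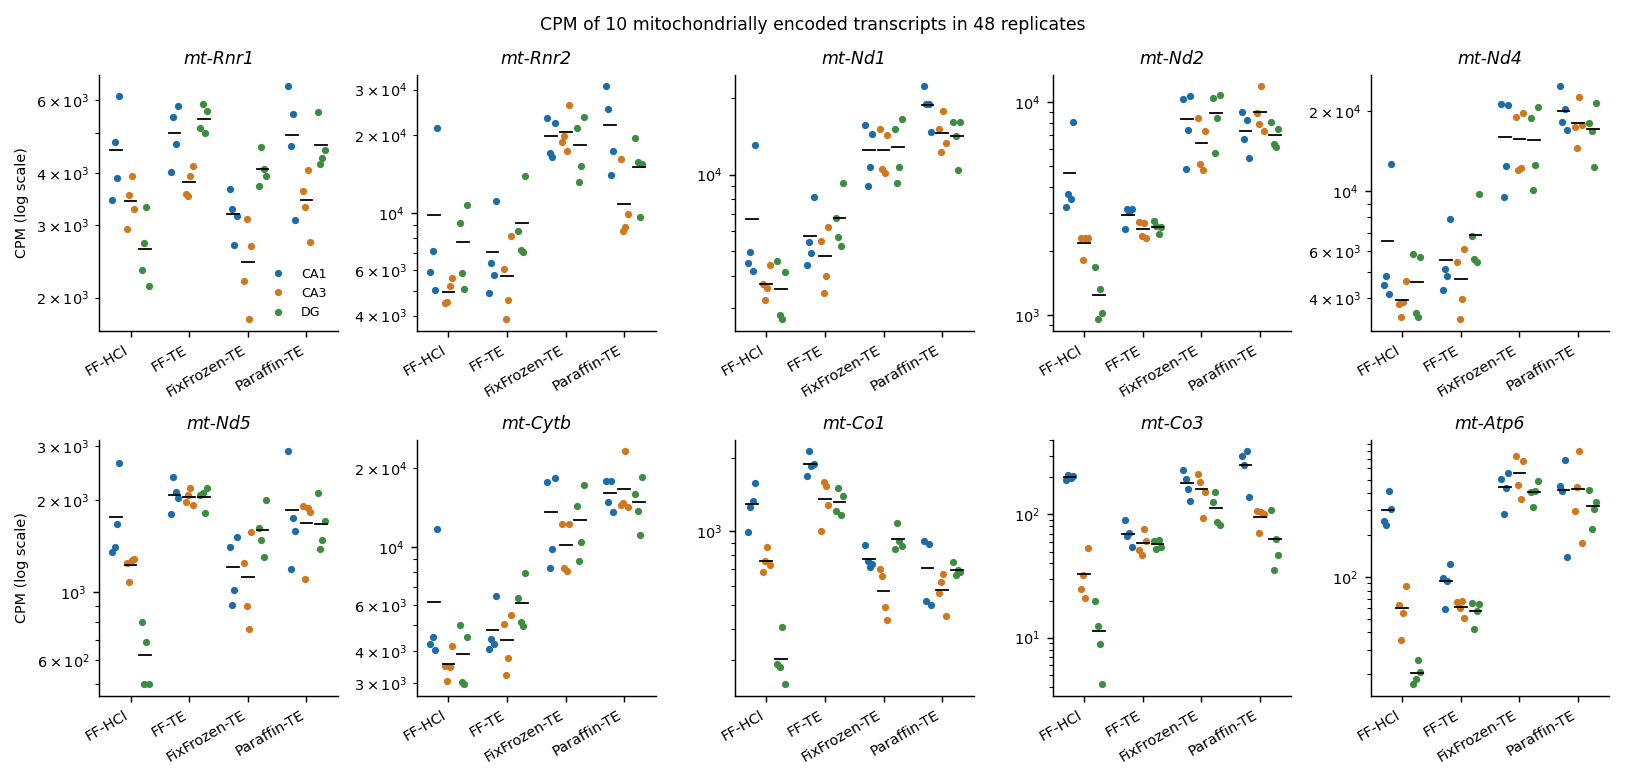
CPM of each member (vertical axes, log scale, a different range for each gene) in the 4 conditions, where each point is 1 replicate, colors give the regions and horizontal bars the mean of 4 replicates. mt-Nd2, mt-Atp6 and mt-Co3 fall from CA1 to DG in FF-HCl, and mt-Nd2, mt-Nd4 and mt-Cytb lie higher in both fixed conditions than in FF-TE.

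By the mean, the members held a larger share of all UMIs in fixed than in fresh-frozen sections. The share was 3.01% ± 1.55 (SD, n = 12) in FF-HCl and 3.5% ± 0.83 in FF-TE, against 7.39% ± 1.68 in FixFrozen-TE and 8.11% ± 1.58 in Paraffin-TE. After correction for repeated UMIs the mean shares were 4.68%, 6.22%, 9.55% and 9.56%, so that part of the gap moved with the limit. In FF-HCl and FF-TE the corrected means rest on lower bounds of mt-Rnr2 in 9 and 12 of 12 replicates. The mRNA members rose from 2.30% in FF-TE to 5.11% in FixFrozen-TE and 6.08% in Paraffin-TE, and the rRNA members from 1.20% to 2.28% and 2.03%. These shares are sums over the members and were not tested. At nearly equal totals, FixFrozen-TE DG replicate 2 (307145 UMIs) had 5.48% and FF-TE DG replicate 4 (294445) had 5.28%. FixFrozen-TE CA1 replicate 3 (117298) had 6.17% and FF-HCl CA1 replicate 4 (127253), which stood apart from its library, had 7.76%. Each pair is 1 replicate against 1, chosen for depth after the values were seen.

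Within the members, rRNA took a decreasing part from the first to the last of these conditions. It made up 37.0% ± 4.38 (SD, n = 12) of the member UMIs in FF-HCl, 34.0% ± 2.19 in FF-TE, 31.4% ± 3.74 in FixFrozen-TE and 24.6% ± 5.69 in Paraffin-TE. With the correction the means were 42.4%, 37.5%, 35.1% and 24.5%. mt-Rnr2 reached at least 90% of the limit in 9 of 12 FF-HCl and 12 of 12 FF-TE replicates. Its corrected counts there are lower bounds, so that the corrected means cannot give the order of FF-HCl and FF-TE. By region, the part was highest in FF-HCl DG (42.1% ± 2.51, SD, n = 4) and lowest in Paraffin-TE CA3 (19.1% ± 4.63).

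The balance between the rRNAs also differed between conditions. mt-Rnr1, the RNA of the small ribosomal subunit, gave 40.7% ± 6.11 (SD, n = 12) of the UMIs of both rRNAs in FF-TE, 34.6% ± 9.62 in FF-HCl, 14.6% ± 4.85 in FixFrozen-TE and 22.8% ± 5.82 in Paraffin-TE. The 12 FF-TE replicates (28.9% to 47.6%) lay above the 12 FixFrozen-TE replicates (9.26% to 26.1%) without overlap. mt-Rnr2 was at the limit in every FF-TE replicate, which by itself raises the part of mt-Rnr1. The deepest FixFrozen-TE DG replicate and the shallowest FF-TE DG replicate, with 307145 and 294445 total UMIs, gave the neighboring ends of these ranges.

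**Figure D3:**
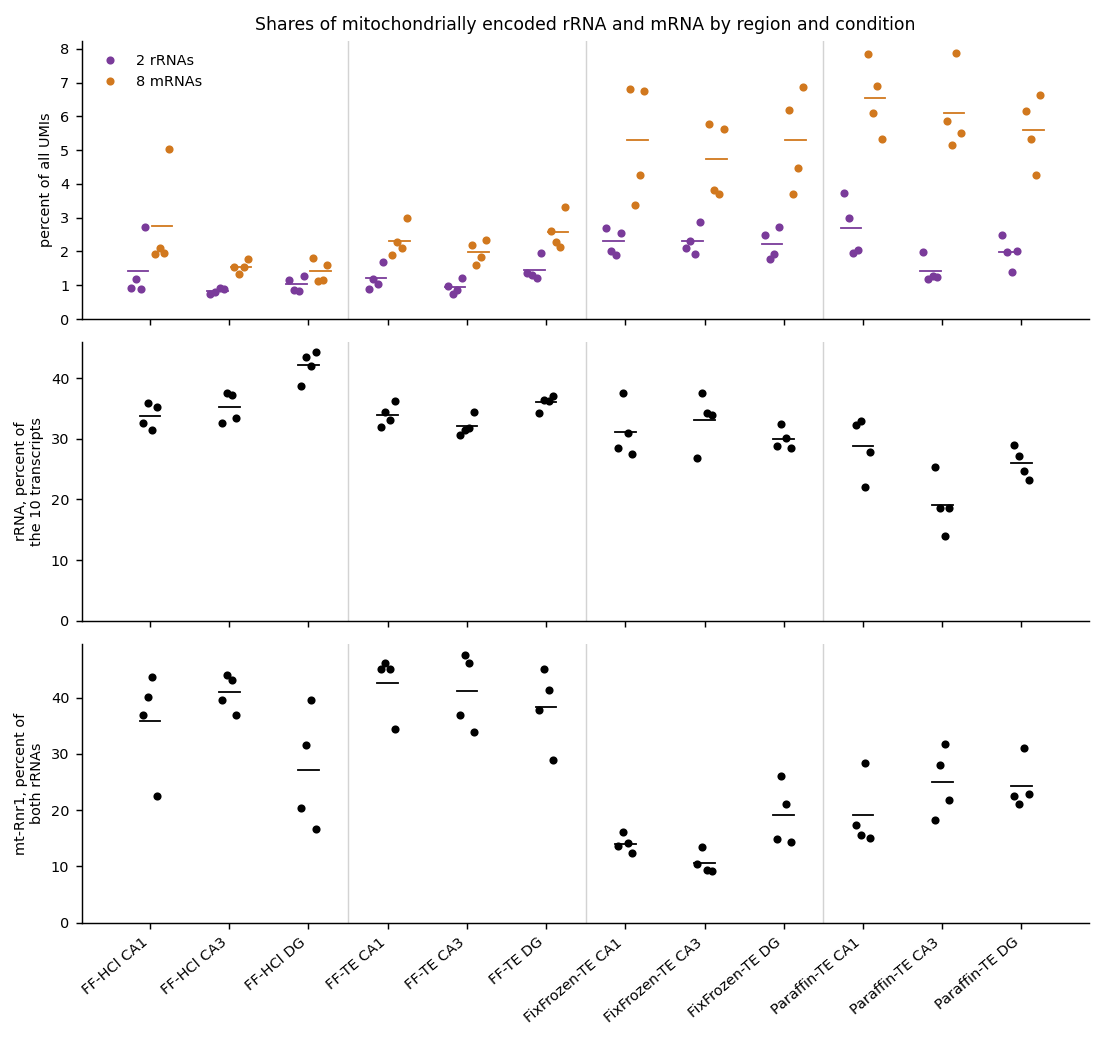
Percent of all UMIs from the 2 rRNA and the 8 mRNA members (top), rRNA as percent of the member UMIs (middle) and mt-Rnr1 as percent of both rRNAs (bottom) in the 12 groups, where points are replicates and bars the mean of 4. The mRNA share lies higher in FixFrozen-TE and Paraffin-TE than in the FF conditions except for 1 replicate of FF-HCl CA1, and mt-Rnr1 takes 9.26% to 26.1% of the rRNA in FixFrozen-TE.

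To see what fixation before freezing changed, FixFrozen-TE was compared with FF-TE, with region as a covariate. All 10 members passed the test, 7 higher and 3 lower, where 48.7% of 15878 genes tested passed it (15.8% higher and 32.9% lower). The log2 fold change is given with its standard error, and the median over all genes was -0.39. FF-TE also serves in the comparison with FF-HCl and FixFrozen-TE in that with Paraffin-TE, so that these comparisons share replicates.

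mt-Atp6 was farthest from 0. Its level was 42.6 to 124 CPM in FF-TE (median 64.8) and 282 to 733 CPM in FixFrozen-TE (median 447), with no overlap between the 12 and 12 replicates. The log2 fold change was 2.65 ± 0.14 (edgeR quasi-likelihood test, Benjamini-Hochberg adjusted p = 6.27e-31). mt-Nd2, a core subunit of complex I, had 2310 to 3152 CPM in FF-TE (median 2664) and 4799 to 10780 CPM in FixFrozen-TE (median 7892). The ranges were again apart, with a log2 fold change of 1.45 ± 0.10 (edgeR adjusted p = 1.96e-22), which was 1.26 after correction for repeated UMIs.

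The other higher members were those nearest the limit, and mt-Co3. mt-Nd4 rose by 1.39 ± 0.12, mt-Rnr2 by 1.36 ± 0.12, mt-Co3 by 1.20 ± 0.16, mt-Cytb by 1.16 ± 0.11 and mt-Nd1 by 1.06 ± 0.11 on the log2 scale. With the correction the values were 0.77 for mt-Nd4, 0.60 for mt-Cytb and 0.33 for mt-Nd1, so that the size of these changes moved with the limit by more than the standard error. For mt-Rnr2 the corrected 0.85 rests on lower bounds in all 12 FF-TE replicates.

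Lower levels were found for 3 members. mt-Rnr1 had 3522 to 5868 CPM in FF-TE (median 4850) and 1777 to 4630 CPM in FixFrozen-TE (median 3211), a log2 fold change of -0.64 ± 0.09 (edgeR adjusted p = 9.05e-09). mt-Nd5 had 1796 to 2373 CPM in FF-TE and 759 to 2000 CPM in FixFrozen-TE, a change of -0.76 ± 0.10. mt-Co1, the catalytic core subunit of complex IV, had 1001 to 2118 CPM in FF-TE (median 1513) and 436 to 1078 CPM in FixFrozen-TE (median 748), a change of -1.05 ± 0.11. The ranges of all 3 overlapped over the 12 and 12 replicates. The limit lowers the deeper FF-TE counts most, and the correction moved these falls farther from 0, to -1.46 for mt-Rnr1, -1.01 for mt-Nd5 and -1.23 for mt-Co1.

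The directions were also read within regions. Replicates did not overlap in the same direction in each of the 3 regions for 5 higher members (mt-Nd2, mt-Nd4, mt-Cytb, mt-Co3 and mt-Atp6) and 2 lower members (mt-Rnr1 and mt-Co1), where 10.4% of all genes tested had such a pattern. The change differed between regions for mt-Co1 (edgeR interaction, adjusted p = 0.018), where 0.718% of genes passed. In the pair of DG replicates with nearly equal totals named above, the ratio of CPM (FixFrozen-TE over FF-TE) was 4.94 for mt-Atp6, 2.82 for mt-Co3 and 2.23 for mt-Nd2, but 1.11 for mt-Cytb, 1.04 for mt-Nd4, 0.997 for mt-Nd1 and 0.945 for mt-Rnr2. It was 0.818 for mt-Rnr1, 0.774 for mt-Co1 and 0.678 for mt-Nd5. This pair was chosen for its depth after the values were seen, is 1 replicate against 1, and has no test.

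The nuclear copies changed the sign for some members. When the UMIs of the copies were added to the member they match, the log2 fold change of mt-Co1 became 0.38 (edgeR adjusted p = 0.087) and that of mt-Co3 became -0.75 (adjusted p = 1.43e-04). mt-Atp6 stayed higher at 1.57. For mt-Co1 and mt-Co3, the direction therefore depended on which gene the reads were assigned to.

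**Figure D4:**
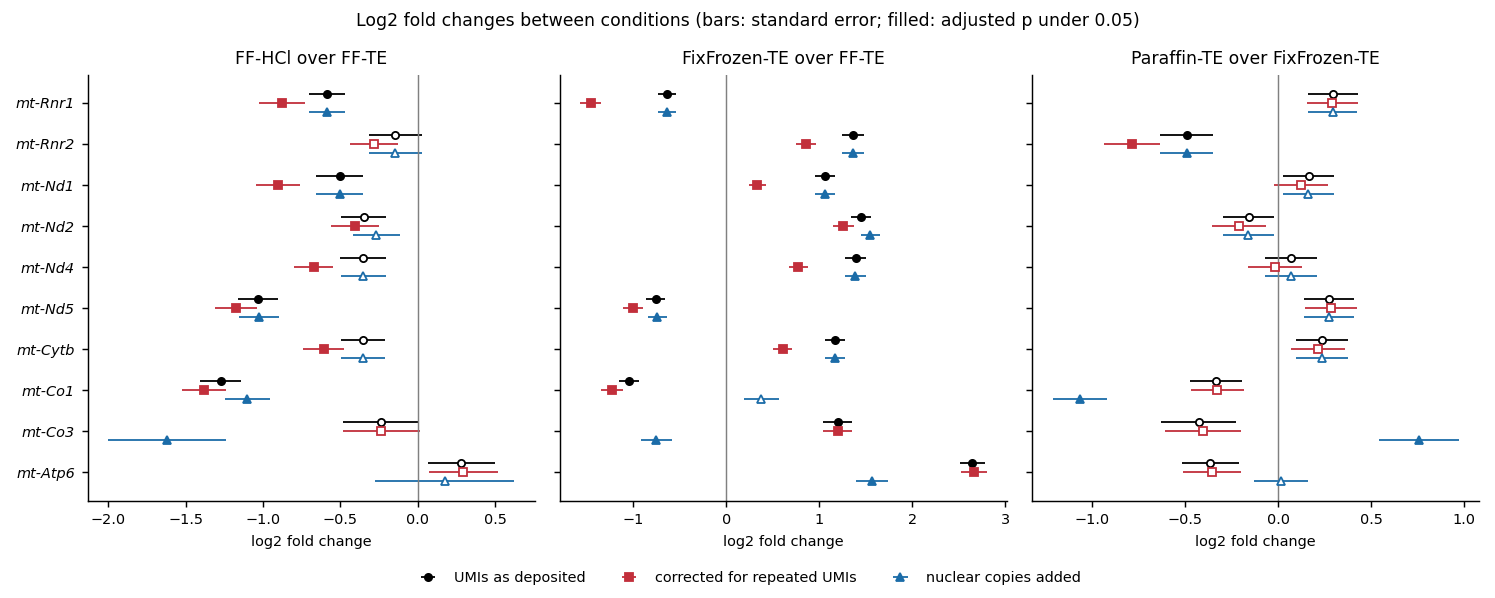
Log2 fold changes of the 10 members (rows) in 3 comparisons of conditions, as deposited (black circles), corrected for repeated UMIs (red squares) and with nuclear copies added (blue triangles); bars are standard errors and filled symbols have an adjusted p under 0.05. In FixFrozen-TE over FF-TE the corrected values of mt-Nd1, mt-Nd4 and mt-Cytb are closer to 0, those of mt-Rnr1, mt-Nd5 and mt-Co1 farther from it, and mt-Co1 and mt-Co3 change sign with the copies added.

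FF-HCl was compared with FF-TE to see the effect of the permeabilization step. In FF-HCl 4 members were lower and none passed as higher, where 30.6% of 18164 genes passed (16.3% higher and 14.3% lower) and the median over all genes was 0.10. mt-Co1 fell by 1.27 on the log2 scale (SE 0.13, edgeR adjusted p = 7.51e-11), mt-Nd5 by 1.03 (SE 0.13, adjusted p = 8.37e-09), mt-Rnr1 by 0.59 (SE 0.11) and mt-Nd1 by 0.51 (SE 0.15). mt-Co1 was the 1 member whose replicates lay lower without overlap in all 3 regions, a pattern of 3.44% of genes. The call of mt-Nd1 was lost with DESeq2, with an adjusted p of 0.12. Replicate numbers paired these conditions in CA3 and DG but not in CA1, where the lowest correlation of same-numbered replicates was 0.029. With the number as a block 7 members were lower, where 34% of genes passed in either direction, and the added ones were mt-Nd2 (-0.37), mt-Nd4 (-0.36) and mt-Cytb (-0.37).

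These changes were not the same in every region. The interaction with region passed for mt-Co3, mt-Atp6, mt-Co1, mt-Nd2, mt-Nd5 and mt-Rnr1 (6 of 10 members, with edgeR adjusted p between 2.07e-10 and 0.023), where 1.18% of genes passed. In DG alone, 7 members lay lower in FF-HCl than in FF-TE without overlap and 0 higher, where 7.04% of genes lay lower and 11.9% higher. In CA1 3 lay higher (mt-Nd2, mt-Co3 and mt-Atp6) and 1 lower (mt-Co1), where 12.4% lay higher and 7.68% lower. Averages over the regions therefore mix unlike differences, and the FF-HCl regions are given separately below.

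Paraffin-TE was compared with FixFrozen-TE to see the effect of embedding. Only mt-Rnr2 passed, with 13140 to 26174 CPM in FixFrozen-TE (median 19390) and 8533 to 30927 CPM in Paraffin-TE (median 15599). The ranges overlapped widely. The log2 fold change was -0.49 ± 0.14 (edgeR adjusted p = 0.0042), where 28.2% of 12189 genes passed (13.1% higher and 15.1% lower). The other 9 members had log2 fold changes from -0.43 (mt-Co3) to 0.29 (mt-Rnr1), none past the threshold. The result depended on scaling. With DESeq2, mt-Rnr2 did not pass (-0.26, adjusted p = 0.29), and mt-Rnr1 (0.53), mt-Nd1 (0.40), mt-Nd5 (0.51) and mt-Cytb (0.47) passed as higher. The difference between these conditions did not pass as unequal between regions for any member with edgeR (3 had an unadjusted p under 0.05), where 0.993% of genes passed.

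Regions were then compared within each condition. In FF-HCl, CA1 was above DG for 8 of 10 members, where 16.9% of genes passed (8.77% higher and 8.17% lower in CA1). The steepest differences were in mt-Co3 and mt-Atp6. mt-Atp6 had 183, 143, 358 and 39 UMIs in the 4 CA1 replicates, 59, 33, 45 and 63 in CA3 and 6, 12, 20 and 5 in DG. As levels these were 234 to 412 CPM in CA1, 35.3 to 86.2 in CA3 and 17.0 to 25.4 in DG, with no overlap between any of the regions. From DG to CA1 the log2 fold change was 3.84 ± 0.25 (edgeR adjusted p = 1.31e-15). mt-Co3 had 140, 127, 171 and 26 UMIs in CA1, 23, 30, 17 and 39 in CA3 and 7, 8, 7 and 1 in DG. These gave a log2 fold change of 4.11 ± 0.28 between CA1 and DG, and the DG value rests on few UMIs. With the nuclear copies added, the values from DG to CA1 became 6.10 for mt-Atp6, 6.38 for mt-Co3 and 3.91 for mt-Co1, so that the size, though not the direction, depended on which gene the reads were assigned to.

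The same order was seen in members with more UMIs in each replicate. mt-Co1 had 997, 1252, 1327 and 1580 CPM in CA1, 684, 761, 862 and 732 CPM in CA3 and 290, 279, 406 and 239 CPM in DG. No 2 regions overlapped, and CA1 over DG was 2.07 ± 0.18. mt-Nd2 had 3227, 3693, 3524 and 8071 CPM in CA1, 2295, 1819, 2294 and 2313 CPM in CA3 and 1675, 959, 1320 and 1026 CPM in DG. It was likewise separated between all regions, with CA1 over DG at 1.90 ± 0.22. mt-Nd5 had 1356 to 2633 CPM in CA1, 1082 to 1287 in CA3 and 501 to 800 in DG, a log2 fold change of 1.5 ± 0.20. mt-Nd1 (0.92 ± 0.24), mt-Rnr1 (0.81 ± 0.18) and mt-Cytb (0.67 ± 0.24) passed with smaller differences. CA1 and DG did not overlap for 6 members, all higher in CA1, where 18.3% of genes did not overlap in either direction. CA3 and DG did not overlap for 5 members (14.3% of genes) and CA1 and CA3 for 5 (13.4%).

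CA3 was above DG in FF-HCl for mt-Atp6 (1.52), mt-Co3 (1.51), mt-Co1 (1.33), mt-Nd5 (1.00) and mt-Nd2 (0.84), and below it for mt-Rnr2 (-0.61), where 8.99% of genes passed (4.46% higher and 4.53% lower in CA3). The call of mt-Rnr2 was lost after correction for repeated UMIs (-0.42, edgeR adjusted p = 0.060) and in 5 of 8 fits that left out 1 replicate. With the replicate number as a block mt-Rnr1 passed as well (0.42). With the copies added, CA3 over DG became 4.22 for mt-Atp6, 5.58 for mt-Co3 and 1.69 for mt-Co1. CA1 was above CA3 for 8 members, from mt-Nd4 (0.69) to mt-Co3 (2.59), where 9.05% of genes passed (4.28% higher and 4.77% lower in CA1). After correction for repeated UMIs mt-Rnr2 (0.69, adjusted p = 0.056), mt-Nd4 (0.39, adjusted p = 0.20) and mt-Cytb (0.56, adjusted p = 0.053) no longer passed with edgeR, and with the copies added the values were 2.20 for mt-Co1, 1.86 for mt-Atp6 and 0.78 for mt-Co3. Replicate 4 of CA1, with 127253 total UMIs the shallowest of FF-HCl, stood apart. Its mt-Rnr2 level was 21225 CPM against 5011 to 7085 CPM in the other CA1 replicates. Without this replicate mt-Nd1 (0.34) and mt-Cytb (0.12) no longer passed in CA1 over DG, and mt-Rnr2 (0.22), mt-Nd1 (0.23), mt-Nd4 (0.14) and mt-Cytb (0.21) no longer passed in CA1 over CA3. The values of mt-Atp6, mt-Co3, mt-Co1, mt-Nd2, mt-Nd5 and mt-Rnr1 in CA1 over DG kept passing when any single replicate was left out.

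Markers of other cells moved with the regions as well. The summed level of 5 oligodendrocyte genes (Mbp, Mobp, Mog, Mag and Cnp) was 5065 to 10287 CPM in FF-HCl CA1, 4679 to 6845 in CA3 and 2422 to 3769 in DG, with all 5 genes higher in CA1 than in DG by the mean and 3 in the order CA1, CA3, DG. In FF-TE, where the members differed less, the sums were 3843 to 7215 CPM in CA1, 3554 to 4768 in CA3 and 1494 to 1976 in DG. Astrocyte markers (6 genes) ran the other way in FF-HCl, with a mean of 3694 CPM in CA1 and 4882 in DG. The means of the 6 interneuron markers were 1140 CPM in FF-HCl CA1, 754 in CA3 and 877 in DG. Their part in the member differences was not tested. In samples of whole regions, fewer cells of a type and less RNA per cell cannot be told apart.

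In FF-TE 3 calls of members were made between regions without pairing, and 14 with the replicate number as a block. In CA1 over DG, mt-Atp6 (0.72 ± 0.23) and mt-Co1 (0.54 ± 0.14) passed as higher, where 10.2% of genes passed (5.11% higher and 5.05% lower). mt-Atp6 had 85, 39, 69 and 46 UMIs in CA1 and 32, 25, 34 and 19 in DG, and its value became -0.93 with the nuclear copies added (edgeR adjusted p = 5.76e-04). In CA3 over DG mt-Rnr1 passed as lower (-0.45 ± 0.14), with 3562, 3522, 3936 and 4170 CPM in CA3 and 5142, 5868, 4989 and 5658 CPM in DG, where 7.92% of genes passed (4.35% higher and 3.57% lower). This call was lost after correction for repeated UMIs (-0.28, edgeR adjusted p = 0.42) and in 6 of 8 fits that left out 1 replicate (-0.54 to -0.41). In CA1 over CA3 none passed with edgeR (3 had an unadjusted p under 0.05) and 1 with DESeq2, where 4.42% of genes passed (1.99% higher and 2.43% lower). Replicate numbers paired the samples in FF-TE. With the number as a block, 6 members passed in CA1 over DG (mt-Co1 and mt-Atp6 higher, and mt-Rnr2, mt-Nd1, mt-Nd4 and mt-Cytb lower) where 16.1% of genes passed. Likewise 5 members passed in CA3 over DG (all lower) where 13.5% passed, and 3 in CA1 over CA3 (mt-Rnr1, mt-Co1 and mt-Atp6 higher) where 8.44% passed. Total UMIs were 294445 to 596072 in FF-TE DG, 370605 to 870761 in CA1 and 511767 to 1111804 in CA3. mt-Rnr2, lower in both blocked comparisons with DG, had 4093 to 4317 UMIs in all 12 FF-TE replicates. Its CPM there follows the totals, so that its calls give no regional level. mt-Nd1 and mt-Nd4 reached at least 90% of the limit in 4 FF-TE replicates each, and mt-Cytb at least 50% in all 12. The part of depth in the differences of the other members was not tested.

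In FixFrozen-TE, 4 members were lower in CA3 than in DG, where 9.26% of genes passed (4.29% higher and 4.97% lower in CA3). mt-Rnr1 had 2200, 3091, 1777 and 2671 CPM in CA3 and 3727, 4630, 4092 and 3927 CPM in DG, with no overlap (a pattern of 12.9% of genes), and its log2 fold change was -0.76 ± 0.15 (edgeR adjusted p = 1.69e-05). mt-Co1 (-0.68 ± 0.17), mt-Nd5 (-0.56 ± 0.16) and mt-Nd2 (-0.49 ± 0.15) also fell. With the copies added mt-Co1 became 0.87 and mt-Nd2 no longer passed (-0.37, edgeR adjusted p = 0.10). The call of mt-Nd2 was lost in 4 of 8 fits that left out 1 replicate and that of mt-Nd5 in 3 of 8. Members lower in CA3 numbered 2 with DESeq2, 1 after thinning and 6 after correction for repeated UMIs. mt-Nd5 was lower in CA1 than in DG (-0.51 ± 0.17), where 8.09% of genes passed (3.36% higher and 4.73% lower), and did not pass with DESeq2 (adjusted p = 0.27). In CA1 over CA3 none passed with edgeR (3 had an unadjusted p under 0.05) or DESeq2, where 7.23% of genes passed (3.31% higher and 3.92% lower).

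In Paraffin-TE only mt-Co3 passed between regions. It had 14, 14, 23 and 5 UMIs in CA1, 13, 7, 5 and 4 in CA3 and 16, 4, 14 and 3 in DG, at totals that differed between replicates. The levels were 139 to 325 CPM in CA1, 70.5 to 108 in CA3 and 35.6 to 108 in DG. CA1 lay above DG without overlap (a pattern of 8.73% of genes) and above CA3 without overlap (7.07%), with log2 fold changes of 1.93 ± 0.35 over DG (where 3.14% of genes passed, 0.881% higher and 2.26% lower) and 1.46 ± 0.42 over CA3 (where 2.28% passed, 0.64% higher and 1.64% lower). In CA3 over DG none passed with edgeR (0 had an unadjusted p under 0.05) or DESeq2, where 3.26% of genes passed (1.95% higher and 1.31% lower). mt-Rnr1 nevertheless lay lower in CA3 than in DG without overlap, where 9.08% of genes did not overlap in either direction (-0.42, edgeR adjusted p = 0.44). With the copies added, mt-Co3 was 3.41 in CA1 over DG, 2.91 in CA3 over DG and 0.59 in CA1 over CA3 (edgeR adjusted p = 0.40 for the last), and mt-Atp6 was 1.02 in CA3 over DG (adjusted p = 0.0093) and -1.07 in CA1 over CA3 (adjusted p = 0.013).

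Whether the regional difference depended on the condition was tested over all 4 conditions. In CA1 over DG, 7 members passed (mt-Atp6, mt-Co3, mt-Co1, mt-Nd2, mt-Nd5, mt-Rnr1 and mt-Nd1), where 2.74% of genes passed. In CA3 over DG mt-Co1, mt-Nd5, mt-Nd2 and mt-Rnr1 passed, where 1.05% did. In CA1 over CA3 mt-Atp6, mt-Co3, mt-Nd2 and mt-Rnr2 passed, where 1.34% did. For mt-Co1, CA1 over DG was 2.07 in FF-HCl, 0.54 in FF-TE, -0.34 in FixFrozen-TE and 0.01 in Paraffin-TE, and for mt-Nd2 it was 1.90, 0.21, -0.19 and 0.05. Each region of a condition is 1 library, so that a difference between regions and a difference between libraries cannot be told apart here.

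The nuclear copies gave a view of how far single libraries differed. The 11 copies in the table took between 1.80% and 30.8% of the UMIs of all mitochondrial genes and copies together, with 27.2% ± 3.93 (SD, n = 4) in FF-HCl CA1, 11.8% ± 1.67 in FF-HCl CA3 and 2.14% ± 0.62 in FF-HCl DG. Gm29216, the mt-Co1 copy, had 1810 CPM ± 203 in FF-TE CA1, 1348 ± 251 in FF-TE CA3 and 33.4 ± 4.71 in FF-TE DG, whereas mt-Co1 itself differed by less than 2-fold between the means of these groups. Gm10925, the mt-Atp6 copy, had 48.1 CPM ± 5.95 in FF-TE CA1 and 758 ± 175 in FF-TE CA3. Gm28437, the mt-Co3 copy, had 2686 CPM ± 855 in FF-HCl CA1 and 22.2 ± 10.8 in FF-HCl DG, but 454 ± 136 in Paraffin-TE DG and 4030 ± 677 in FixFrozen-TE DG. The replicates of 1 library stayed close while the libraries lay far apart, and for none of these 3 copies did 1 region have the highest mean in all conditions.

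As a measure of this, the SD of log2 CPM between the 12 libraries was divided by that within them. The SD between libraries also holds the differences between regions and conditions. The ratio was 7.84 for Gm29216, 6.60 for Gm28437 and 5.28 for Gm10925, against a median of 1.27 over genes. Among the members it was highest for mt-Atp6 (3.42), mt-Co1 (3.11), mt-Nd2 (3.10) and mt-Co3 (3.03), and lowest for mt-Rnr1 (1.58). The 4 highest are the members with the most shared 3′ sequence printed above. A low SD within libraries also raises the ratio, and it was 0.23 (mt-Co1) to 0.46 (mt-Atp6) for the members against a median of 0.62. The SD between libraries had a median of 0.77 over genes. It was 0.37 for mt-Rnr1, 0.51 for mt-Nd5, 0.72 for mt-Co1 and 0.77 for mt-Rnr2, and 0.85 (mt-Nd1) to 1.56 (mt-Atp6) for the others.

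**Figure D5:**
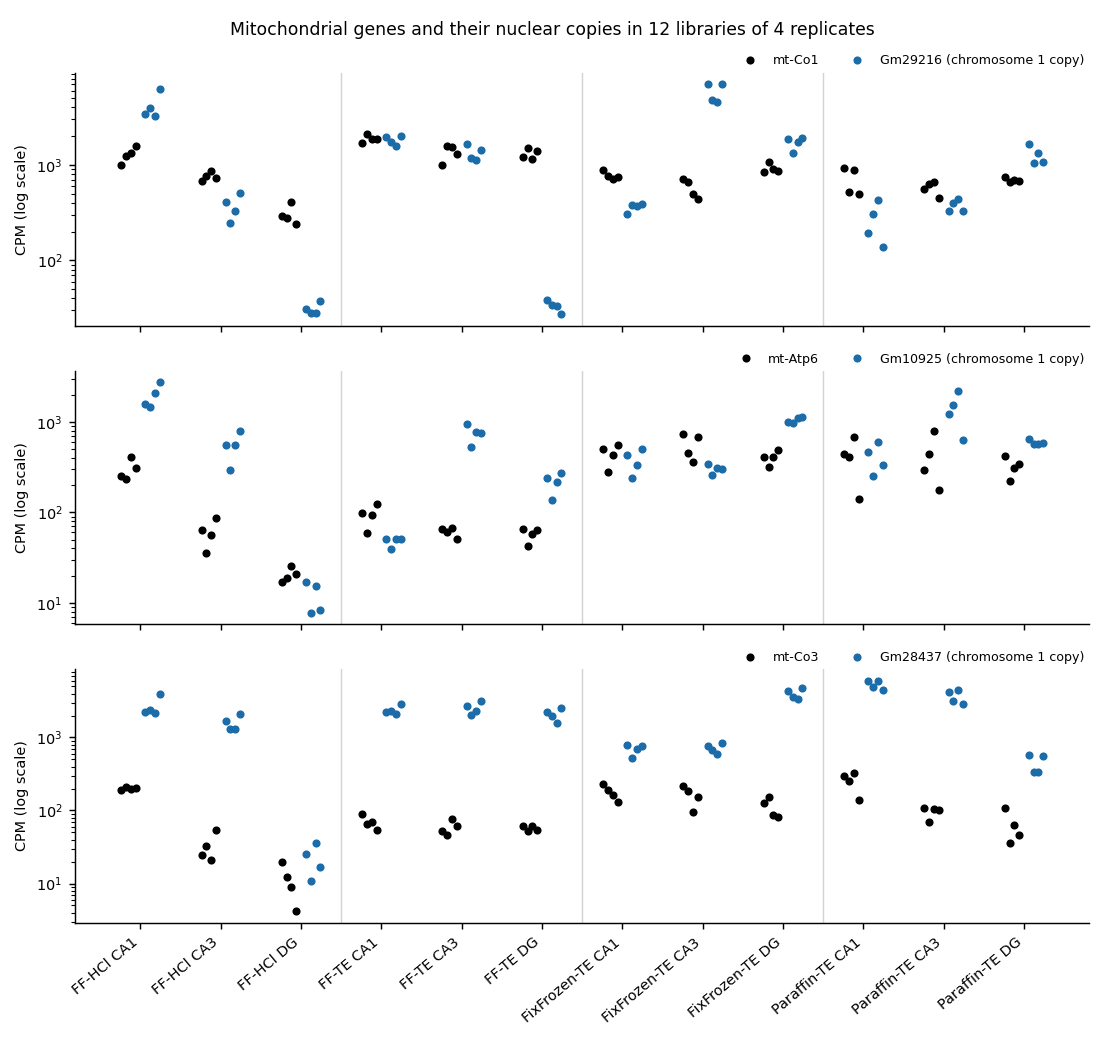
CPM (vertical axes, log scale) of mt-Co1, mt-Atp6 and mt-Co3 (black) and of their chromosome 1 copies (blue) in the 12 groups, where each point is 1 replicate. Gm29216 is near 33.4 CPM in FF-TE DG and 1810 CPM in FF-TE CA1 while mt-Co1 stays within the same range, and the 4 replicates of each library lie close together.

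The table held 14 other genes of the mitochondrial chromosome. In FixFrozen-TE over FF-TE 7 of them were tested, of which 3 passed as higher and 1 as lower. Of all genes tested, 15.8% passed as higher and 32.9% as lower. mt-Co2, a complex IV subunit that also has nuclear copies, rose in FixFrozen-TE over FF-TE (2.55 ± 0.13), as did mt-Nd3 (3.36 ± 0.28). mt-Nd3 has a nuclear copy as well (Gm28438, 99.7% identity over 345 of 348 bases) and had only 347 UMIs over all 48 replicates. The values of mt-Co2 and mt-Nd3 were not recomputed with the copies added. mt-Nd6, which is annotated on the other strand, did not pass (0.21 ± 0.10, edgeR adjusted p = 0.065). Because the counting did not use strand, its UMIs can come from RNA of either strand. In FF-HCl, CA1 was above DG for mt-Co2 (4.65), mt-Nd3 (5.37) and mt-Nd6 (1.62).

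Nuclear genes that work with the members were followed as lists chosen with earlier results of these data known. Of the nuclear-encoded subunits of oxidative phosphorylation (76 listed), 52 rose and 5 fell of 73 tested in FixFrozen-TE over FF-TE, with a median log2 fold change of 0.95 against -0.39 over all genes, of which 15.8% rose and 32.9% fell. In Paraffin-TE over FixFrozen-TE 0 rose and 54 fell of 72 tested, with a median of -0.97 against 0.02 over all genes, of which 13.1% rose and 15.1% fell. The members and their nuclear partners thus both lay higher in FixFrozen-TE than in FF-TE by the median, but in Paraffin-TE the nuclear subunits were lower while 9 of 10 members did not pass. In FF-HCl over FF-TE, 15 rose and 24 fell of 75 tested, where 16.3% of all genes rose and 14.3% fell.

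Among factors that copy, transcribe, process or turn over mitochondrial nucleic acids (36 listed), 5 rose and 3 fell of 32 tested in FixFrozen-TE over FF-TE, shares no larger than those of all genes (15.8% and 32.9%), so that the list did not stand out. Those that rose included Tfam (0.75), which packages and activates the mitochondrial genome, and Mtpap (1.03), the mitochondrial poly(A) polymerase. Those that fell were Polrmt (-1.68), the mitochondrial RNA polymerase, Lrpprc (-1.30), which stabilizes mitochondrial mRNA, and Polg (-1.06), the catalytic subunit of the mitochondrial DNA polymerase. In Paraffin-TE over FixFrozen-TE, 2 rose, Lrpprc (0.97) and Ptcd3 (1.99), and 3 fell, among them Tfam (-0.90), of 28 tested, again under the shares of all genes (13.1% and 15.1%). In FF-HCl over FF-TE, 6 rose, among them Polrmt (0.83), and Lrpprc fell (-0.32), of 33 tested, where 16.3% of all genes rose and 14.3% fell. A list of 7 RNAs that stay in the nucleus moved against the members in FixFrozen-TE over FF-TE, where all 7 fell with a median of -1.74, and rose in Paraffin-TE over FixFrozen-TE, where all 7 passed with a median of 2.1.

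The members were not one pattern over the 12 group means of log2 CPM. The Pearson correlation was 0.989 between mt-Nd4 and mt-Cytb and 0.986 between mt-Nd1 and mt-Nd4, but -0.06 between mt-Rnr1 and mt-Rnr2 and -0.27 between mt-Rnr2 and mt-Co1. Among 6556 genes above the same minimum of 10 UMIs on average, the closest to the sum of the 8 mRNA members over the same 12 means were Rnf7 (0.971), Ythdf2 (0.966), Rpl39 (0.962), Rps12-ps9 (0.960) and Ube2v2 (0.959). Those closest to mt-Rnr1 were Dnal1 (0.858), Cldnd1 (0.824), S1pr1 (0.823), Pum2 (0.811) and Sat1 (0.769). These are descriptions over 12 points that share 12 libraries and the depth of their condition.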

How the data were processed

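The deposited table holds UMI counts per gene for the 48 replicates. Per the labels and the study's methods, the authors took 6-base barcodes and 6-base UMIs with UMI-tools 1.0.0, trimmed reads, aligned them to GRCm38 with HISAT2 2.1.0, assigned them to genes with featureCounts 1.6.4 (multi-mapped reads not counted, no strand) and counted different UMIs. The annotation release is not given in the sources used here. A UMI of 6 bases has 4096 forms, near which counts leveled off (mt-Rnr2 exceeded it in 18 replicates). Totals of 35932 to 1111804 set the counting precision.

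Groups followed the sample titles (the series text names CA2 where titles name CA3). CPM is relative to all UMIs. Tests used edgeR 4.0.16 (quasi-likelihood, TMM, genes with at least 10 UMIs in the fit, Benjamini-Hochberg over all genes, threshold 0.05), with region as a covariate between conditions and F-tests for interactions. Alternatives included DESeq2 1.42.0, thinning to 35932 UMIs, corrected counts and added copies, the last chosen after seeing the data. The correction is the expected number of molecules, the limit of 4096 times the negative natural log of 1 minus the fraction of it that was counted, with UMIs held at 90% of the limit. Copies are nuclear GENCODE genes with matches of at least 100 bases and 95% identity. Scripts were tested on simulated data. Of the marker lists, those of the regions, oligodendrocytes (5 genes, with 1 marker not reported here), astrocytes, interneurons and nuclear RNAs are given. The text names the 10 members, the other mitochondrial genes, their copies, and list genes past the threshold. The members and lists were chosen with earlier results of these data known.

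Same-numbered replicates deviated together, with every correlation above 0.1, between all regions of FF-TE (lowest 0.180), between FF-HCl CA3 and DG (lowest 0.228) and between FF-HCl and FF-TE in CA3 (lowest 0.259) and DG (lowest 0.171), which are 6 of 30 pairs of groups. The numbers come from the sample titles.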

Additional observations from a re-analysis of the deposited data

Results flagged for a closer look

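Within each group of 4 replicates, the highest and lowest replicates were compared with the others. Of 144 sets of 4 values, 11 held a replicate that stood apart, and chance gives about 1 in 20. Of these, 6 were in replicate 4 of FF-HCl CA1, the shallowest of its condition, where CPM was 21225 for mt-Rnr2, 13068 for mt-Nd1, 8071 for mt-Nd2, 12660 for mt-Nd4 and 11709 for mt-Cytb, and the members took 7.76% of all UMIs. In FF-HCl CA3, replicate 2 had the lowest mt-Nd2 level (1819 CPM). In FF-TE CA1, replicate 1 had the lowest mt-Nd2 level (2527 CPM) and replicate 4 the highest mt-Cytb level (6468 CPM). In Paraffin-TE CA3, replicate 2 had the lowest mt-Nd5 level (1108 CPM) and replicate 3 the highest mt-Cytb level (23195 CPM).

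Differences of differences passed the edgeR interaction test for several members. The regional difference depended on the condition for 7 members in CA1 over DG, 4 in CA3 over DG and 4 in CA1 over CA3. The change from FF-TE to FF-HCl depended on the region for 6 members, and that from FF-TE to FixFrozen-TE for 1 member, mt-Co1.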

How the results depend on the processing

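Member values (62) were recomputed under 10 alternatives. Of 618 values, 525 kept direction and side of the threshold, 56 kept direction but no longer passed, 32 newly passed and 5 reversed. All 5 reversals came from adding the nuclear copies: mt-Atp6 in FF-TE CA1 over DG (-0.93), mt-Co1 in FixFrozen-TE CA3 over DG (0.87), mt-Co1 (0.38) and mt-Co3 (-0.75) in FixFrozen-TE over FF-TE, and mt-Co3 in Paraffin-TE over FixFrozen-TE (0.76).

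Calls over all genes also depended on the alternative. In FF-TE CA1 over DG they went from 1423 of 14011 genes to 139 of 5412 when thinned and to 1431 of 14011 when corrected. FixFrozen-TE CA3 over DG went from 866 of 9353 to 252 of 5126 (thinned) and 638 of 2834 (filterByExpr). Paraffin-TE CA1 over DG went from 282 of 8969 to 104 of 5473 (thinned). FF-HCl over FF-TE went from 5552 of 18164 to 5285 of 31102 (no filter). Paraffin-TE over FixFrozen-TE went from 3437 of 12189 to 2892 of 10768 (DESeq2). CA1 over DG by condition went from 472 of 17214 to 49 of 10320 (thinned). With copies added they were not kept. Counts of members called, summed over region pairs or interactions, moved as follows, and the cause was not tested. Between regions, FF-TE went from 3 to 5 (library totals), 1 (thinned) and 7 (copies added). FixFrozen-TE went from 5 to 2 (DESeq2), 3 (filterByExpr), 1 (thinned), 8 (corrected) and 10 (copies added), and Paraffin-TE from 2 to 1 (no filter, filterByExpr and thinned) and 4 (copies added). FF-HCl over FF-TE went from 4 to 7 (no filter and corrected). Paraffin-TE over FixFrozen-TE went from 1 to 4 (DESeq2, its size factors and filterByExpr), 3 (library totals, no filter and copies added) and 2 (thinned). Interactions of condition with region went from 7 to 11 (no filter and corrected) and 12 (copies added), and of region with condition from 15 to 7 (thinned). The corrected shares were 4.68%, 6.22% and 9.55% of all UMIs in FF-HCl, FF-TE and FixFrozen-TE, and rRNA 42.4% and 37.5% of the members in FF-HCl and FF-TE. In FF-HCl and FF-TE these rest on lower bounds of mt-Rnr2 in 9 and 12 of 12 replicates.

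With the replicate block, called members numbered 14 in FF-TE, 11 in FixFrozen-TE and 4 in Paraffin-TE between regions, 7 in FF-HCl over FF-TE, 3 in Paraffin-TE over FixFrozen-TE and 13 in interactions of condition with region. The FF-TE number includes calls of mt-Rnr2, which was at the limit in all 12 replicates. Calls over all genes went from 866 to 906 of 9353 in FixFrozen-TE CA3 over DG and from 282 to 355 of 8969 in Paraffin-TE CA1 over DG. In FixFrozen-TE they went from 759 to 873 of 9385 in CA1 over DG and from 599 to 700 of 8286 in CA1 over CA3. In Paraffin-TE they went from 306 to 442 of 9380 in CA3 over DG and from 171 to 238 of 7495 in CA1 over CA3. They went from 214 to 759 of 18164 for FF-HCl over FF-TE by region, and from 3437 to 3365 of 12189 in Paraffin-TE over FixFrozen-TE. For the other interactions they went from 114 to 243 of 15878 (FixFrozen-TE over FF-TE) and from 121 to 143 of 12189 (Paraffin-TE over FixFrozen-TE). The numbers paired the samples between FF-TE regions, between FF-HCl CA3 and DG, and between FF-HCl and FF-TE in CA3 and DG.

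Leaving out 1 replicate gave 16 to 23 calls in FF-HCl regions, 1 to 7 in FF-TE, 2 to 6 in FixFrozen-TE, 1 to 3 in Paraffin-TE, 4 to 8 in FF-HCl over FF-TE (8 without FF-HCl CA1 replicate 4), 10 to 10 in FixFrozen-TE over FF-TE and 1 to 4 in Paraffin-TE over FixFrozen-TE. The share over all genes was not kept for these fits. Depth limits the low counts of mt-Co3 and mt-Atp6 in the fixed conditions, and the UMI limit those of mt-Rnr2, mt-Nd1, mt-Nd4 and mt-Cytb in the fresh-frozen ones.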
